A study of Populus x canadensis with 3 samples.

Results

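The microRNA (miRNA) families miR1444 and miR397 were described in root RNA of "Neva", a cultivar of the hybrid poplar Populus × euramericana. Members were all distinct sequences of the deposited miRNA table whose name carries miR1444, miR397 or miR857. This choice goes by name and not by value, but it was made with earlier results of these data known. The rule found 8 of 472 distinct sequences, 4 of miR1444, 4 of miR397 and 0 of miR857, and each of the 8 stands in 1 of the table's 673 entries. The roots came from cuttings kept in water culture for 60 days, which then received pHBA (para-hydroxybenzoic acid) for 3 days. pHBA is a simple phenol with a carboxyl group that reaches soil from roots and litter. The labelled doses were 0, 2 and 4 mML-1, a unit that the labels do not explain, and the names PHBA 0, PHBA 2 and PHBA 4 stand for the libraries. All 3 groups were the same hybrid and had been moved to nutrient solution once rooted, and PHBA 0 was the untreated group. RNA of each treatment was pooled before sequencing with a number of plants per pool not given in the sources used here, so each dose is 1 library. Differences between doses have no replicate check and hence no p-value, and the intervals in brackets stand for the error of counting reads, not for the spread between plants.

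miR1444 is a poplar miRNA that acts on mRNAs of polyphenol oxidases, copper enzymes that oxidise phenols to quinones. miR397 acts on mRNAs of laccases, multicopper oxidases that couple monolignols into lignin in cell walls, and miR857 is known from Arabidopsis for the same class of target. Both families belong to a group of plant miRNAs known to accumulate when copper is scarce, which also includes miR398 and miR408. A plant miRNA is cut from a hairpin as a short duplex, and usually 1 strand is kept in an Argonaute protein, where it guides cleavage of the target, while the opposite strand is lost. The targets themselves were not measured in these libraries, and the table lists miRNAs alone, so the root label was not checked against marker genes.

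The 4 sequences of miR1444 come from 2 named hairpins, MIR1444a and MIR1444c, and are shown because their strands can be compared. They are written 5′ to 3′ with T for U, as in the deposited table, and capitals mark the seed, bases 2 to 8.
ptc-miR1444a_R+1: tCCACATTcggtcaatgttcc
ptc-MIR1444c-p3_1ss3CT: cATATTCGgtcaacgttcgag
ptc-MIR1444a-p5: aATGTTGAccgaatatggatg
ptc-MIR1444c-p5: cGAATATTgatcgaatatgta
The prefix ptc stands for Populus trichocarpa, whose registered miRNAs served for naming. Names with capital MIR and p5 or p3 belong to hairpin strands without an entry of their own among registered mature miRNAs, R+1 marks an added base at the 3′ end, and 1ss3CT marks a substitution.

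All 4 sequences are 21 nt long, and each has a seed of its own that no other sequence of the table carries. ptc-miR1444a_R+1 begins with T, the base that most plant miRNAs loaded into AGO1 carry first, while the other 3 begin with A or C. The 3p strand of MIR1444c starts 2 nt downstream of ptc-miR1444a_R+1 when they are aligned, and 16 of the 19 overlapping bases are identical. The 5p strand of MIR1444c starts 2 nt upstream of that of MIR1444a, again with 16 of 19 identical bases. The same shift of 2 nt on both arms leaves the strands alike in sequence and different in seed.

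The strands of each named hairpin paired with each other in silico. RNAduplex gave 18 base pairs for the MIR1444a strands, 2 of them G-U pairs, with an overhang of 2 nt at each 3′ end and an energy of -22.6 kcal/mol. It gave 18 base pairs for the MIR1444c strands, also with 2 G-U pairs and overhangs of 2 nt, at -22.4 kcal/mol. Overhangs of this length are the form in which Dicer enzymes leave miRNA duplexes. The 5p strand of MIR1444a could also pair with the 3p strand of MIR1444c, at -24.9 kcal/mol and with overhangs of 4 nt, so pairing alone does not assign a 5p read to 1 hairpin.

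The 4 sequences of miR397 are forms of 1 sequence and are shown for their ends.
ptc-miR397a: tCATTGAGtgcagcgttgatg
ath-miR397a_R+1: tCATTGAGtgcagcgttgatgt
aly-miR397a-5p_R+1_1ss21GT: tCATTGAGtgcagcgttgattt
ptc-miR397b_L-1: cATTGAGTgcagcgttgatg
The prefixes ath and aly stand for Arabidopsis thaliana and Arabidopsis lyrata, and L-1 marks a missing base at the 5′ end. ath-miR397a_R+1 is ptc-miR397a with 1 more base at the 3′ end, and 21 of 21 overlapping bases are identical. aly-miR397a-5p_R+1_1ss21GT differs from ath-miR397a_R+1 by 1 of 22 bases. ptc-miR397b_L-1 is ptc-miR397a without its first base, so its seed is shifted by 1, while the other 3 share the seed CATTGAG. No opposite strand of a miR397 hairpin is among the 8 members.

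ptc-miR1444a_R+1 was the most abundant member. It stood at 1905, 5167 and 2649 normalized reads in PHBA 0, PHBA 2 and PHBA 4, from 3822, 3996 and 1766 reads. Normalized reads are the deposited values, which are reads times 1 constant per library. Its rank among the 472 distinct sequences was 29, 15 and 24 over the 3 doses. It was 2.71-fold higher in PHBA 2 than in PHBA 0 (95% counting interval 2.59 to 2.84), 1.39-fold higher in PHBA 4 than in PHBA 0 (1.31 to 1.47) and 1.95-fold lower in PHBA 4 than in PHBA 2 (1.84 to 2.06). With libraries set to equal totals this last value is 1.59-fold, and its interval still excludes 1. The value of PHBA 4 against PHBA 0 is then 1.74-fold (1.64 to 1.84), outside the interval as deposited. The lower dose held the highest value and the untreated roots the lowest under every scaling tried. In these pooled roots, fewer cells with the miRNA and less of it per cell cannot be told apart.

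The 3p strand of MIR1444c, ptc-MIR1444c-p3_1ss3CT, had the same order of libraries as deposited, with smaller steps. It stood at 453, 750 and 579 normalized reads over the 3 doses, from 909, 580 and 386 reads. It was 1.66-fold higher in PHBA 2 than in PHBA 0 (1.49 to 1.84) and 1.28-fold higher in PHBA 4 than in PHBA 0 (1.13 to 1.44). Between the treated libraries it was 1.30-fold lower in PHBA 4 (1.14 to 1.48), but 1.05-fold with equal totals (0.925 to 1.20), where the interval includes 1. The name gives this sequence a substitution against its hairpin, and whether the substitution lies in the genome of the hybrid was not analysed here.

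The 5p strands were rare and, like their partners, higher at the lower dose than in untreated roots. ptc-MIR1444a-p5 stood at 32.9, 64.7 and 33.0 normalized reads, from 66, 50 and 22 reads, and was 1.97-fold higher in PHBA 2 than in PHBA 0 (1.33 to 2.88). At the higher dose its ratio to PHBA 0 was 1.00 (0.589 to 1.65), and the direction of that value changes with the scaling of the libraries. ptc-MIR1444c-p5 stood at 12.0, 27.2 and 9.0 normalized reads, from 24, 21 and 6 reads. It was 2.27-fold higher in PHBA 2 than in PHBA 0 (1.20 to 4.26) and 3.02-fold lower in PHBA 4 than in PHBA 2 (1.18 to 9.14), and its ratio of PHBA 4 to PHBA 0 was 0.752 (0.252 to 1.89). With equal totals the values of PHBA 4 against PHBA 2 are 1.59-fold lower for ptc-MIR1444a-p5 (0.948 to 2.76) and 2.45-fold lower for ptc-MIR1444c-p5 (0.958 to 7.43), and both intervals include 1. All 4 sequences of miR1444 had their highest value in PHBA 2, but only for ptc-miR1444a_R+1 did the interval against PHBA 4 exclude 1 under every scaling. The 5p values of PHBA 4 rest on at most 22 reads.

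**Figure D1:**
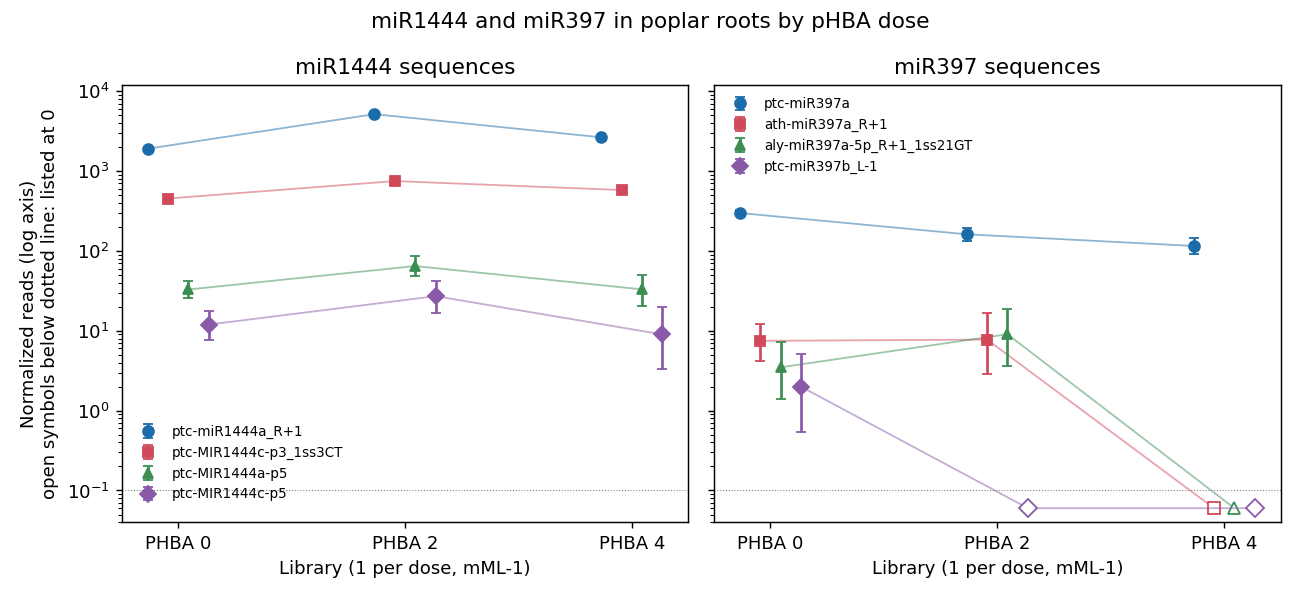
Normalized reads (log axis) of the 4 miR1444 sequences (left) and the 4 miR397 sequences (right) in the libraries PHBA 0, PHBA 2 and PHBA 4, 1 library per dose, with exact 95% Poisson counting intervals as bars and open symbols under the dotted line for sequences listed at 0. As deposited the miR1444 sequences are highest in PHBA 2, where ptc-miR1444a_R+1 reaches 5167, while ptc-miR397a stands at 299, 162 and 115 over the doses.

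The strand balance of the hairpins differed by less than the counting error between doses. Of the reads of both MIR1444a strands, the 5p strand made up 1.70% without pHBA (Wilson 95% interval 1.34 to 2.15), 1.24% at the lower dose (0.939 to 1.63) and 1.23% at the higher dose (0.814 to 1.86). For MIR1444c its share was 2.57% without pHBA (1.73 to 3.80), 3.49% at the lower dose (2.30 to 5.28) and 1.53% at the higher dose (0.703 to 3.30). The 3 intervals of each hairpin overlap, and in every library nearly all reads of a hairpin were of its 3p strand.

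The balance between the 3p strands of the 2 hairpins did differ beyond counting error. Reads of ptc-miR1444a_R+1 were 4.20 times those of ptc-MIR1444c-p3_1ss3CT in PHBA 0 (3.91 to 4.52), 6.89 times in PHBA 2 (6.31 to 7.53) and 4.58 times in PHBA 4 (4.10 to 5.12). The interval of PHBA 2 lies above the other two, which overlap each other. As both counts come from the same library, this ratio does not depend on the scaling between libraries. ptc-miR1444a_R+1 made up 79.3%, 86.0% and 81.0% of all miR1444 reads over the 3 doses. Without it, the other 3 sequences together were 1.69-fold higher in PHBA 2 than in PHBA 0 (1.53 to 1.87), against 2.50-fold for the whole family (2.40 to 2.60). Most of these other reads were of ptc-MIR1444c-p3_1ss3CT, 909 of 999 in PHBA 0 and 580 of 651 in PHBA 2. The difference at the lower dose was thus larger in ptc-miR1444a_R+1 than in ptc-MIR1444c-p3_1ss3CT. For both 5p strands the interval of PHBA 2 against PHBA 0 includes the 2.71-fold of ptc-miR1444a_R+1. Reads of ptc-MIR1444a-p5 were 2.75 times those of ptc-MIR1444c-p5 in PHBA 0 (1.70 to 4.59). This 5p ratio was 2.38 in PHBA 2 (1.40 to 4.17) and 3.67 in PHBA 4 (1.44 to 11.1). The 5p intervals overlap, so the few 5p reads do not show whether the balance of the 5p strands differed.

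ptc-miR397a went the other way over the doses. It stood at 299, 162 and 115 normalized reads in PHBA 0, PHBA 2 and PHBA 4, from 599, 125 and 77 reads, and ranked 94, 128 and 141 among the 472 sequences. It was 1.85-fold lower in PHBA 2 than in PHBA 0 (1.52 to 2.26) and 2.59-fold lower in PHBA 4 than in PHBA 0 (2.04 to 3.32). In PHBA 4 it was 1.40-fold lower than in PHBA 2 (1.05 to 1.88). With libraries set to equal totals that value is 1.14-fold (0.850 to 1.53), an interval that includes 1, so an order between the treated libraries was not established. Untreated roots held the highest value under every scaling.

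The other 3 sequences of miR397 were rare. ath-miR397a_R+1 had 15 and 6 reads in PHBA 0 and PHBA 2, which are 7.48 and 7.76 normalized reads, and was listed at 0 in PHBA 4. aly-miR397a-5p_R+1_1ss21GT had 7 reads in each of PHBA 0 and PHBA 2, which are 3.49 and 9.05 normalized reads, and was listed at 0 in PHBA 4. ptc-miR397b_L-1 had 4 reads in PHBA 0 and was listed at 0 in both treated libraries. In PHBA 2 against PHBA 0 the ratio was 1.04 for ath-miR397a_R+1 (0.330 to 2.83) and 2.59 for aly-miR397a-5p_R+1_1ss21GT (0.776 to 8.67). Both intervals include 1, so a fall like that of ptc-miR397a was not seen in them. No fold is given against a 0, since the table may leave out values under a minimum. Together these 3 made up 4.16% of miR397 reads in PHBA 0 (2.85 to 6.03) and 9.42% in PHBA 2 (5.59 to 15.5). In PHBA 4 the family had 77 reads, all of ptc-miR397a, and a Wilson interval for 0 of 77 reaches 4.75%, so a difference from PHBA 0 was not detectable there. That bound lies under the interval of PHBA 2, although a minimum on listed values would also remove such rare sequences.

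**Figure D2:**
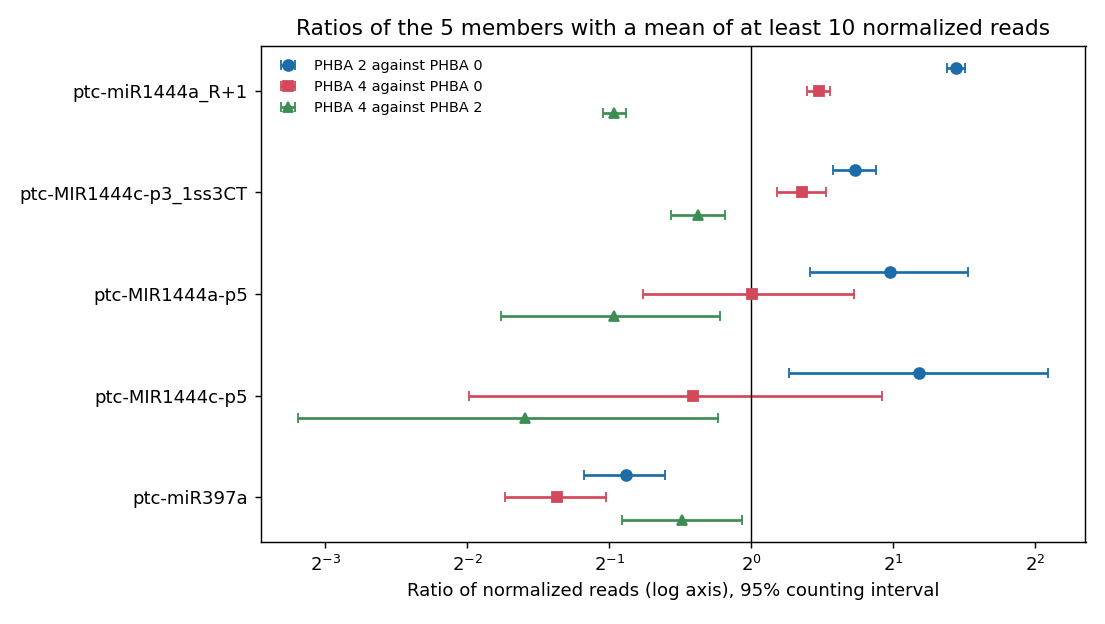
Ratios of normalized reads (log axis) of the 5 members whose mean reached 10 normalized reads, in the 3 comparisons between doses, with 95% counting intervals as bars and a line at a ratio of 1. The miR1444 sequences lie right of 1 for PHBA 2 against PHBA 0 and, as deposited, left of 1 for PHBA 4 against PHBA 2, while ptc-miR397a lies left of 1 in all 3 comparisons, at 0.541, 0.387 and 0.715.

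miR1444 and miR397 parted at both doses within the same libraries. Reads of ptc-miR1444a_R+1 were 6.38 times those of ptc-miR397a in PHBA 0 (5.85 to 6.97), 32.0 times in PHBA 2 (26.8 to 38.5) and 22.9 times in PHBA 4 (18.3 to 29.2). Reads of ptc-MIR1444c-p3_1ss3CT were 1.52 times those of ptc-miR397a in PHBA 0 (1.37 to 1.69), 4.64 times in PHBA 2 (3.82 to 5.68) and 5.01 times in PHBA 4 (3.92 to 6.49). For both strands the intervals of PHBA 2 and PHBA 4 lie above that of PHBA 0 and overlap each other. Relative to ptc-miR397a, reads of these miR1444 strands were thus higher in both treated libraries than in PHBA 0, whatever the scaling. Whether regulation of polyphenol oxidases or laccases differed with them was not tested.

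**Figure D3:**
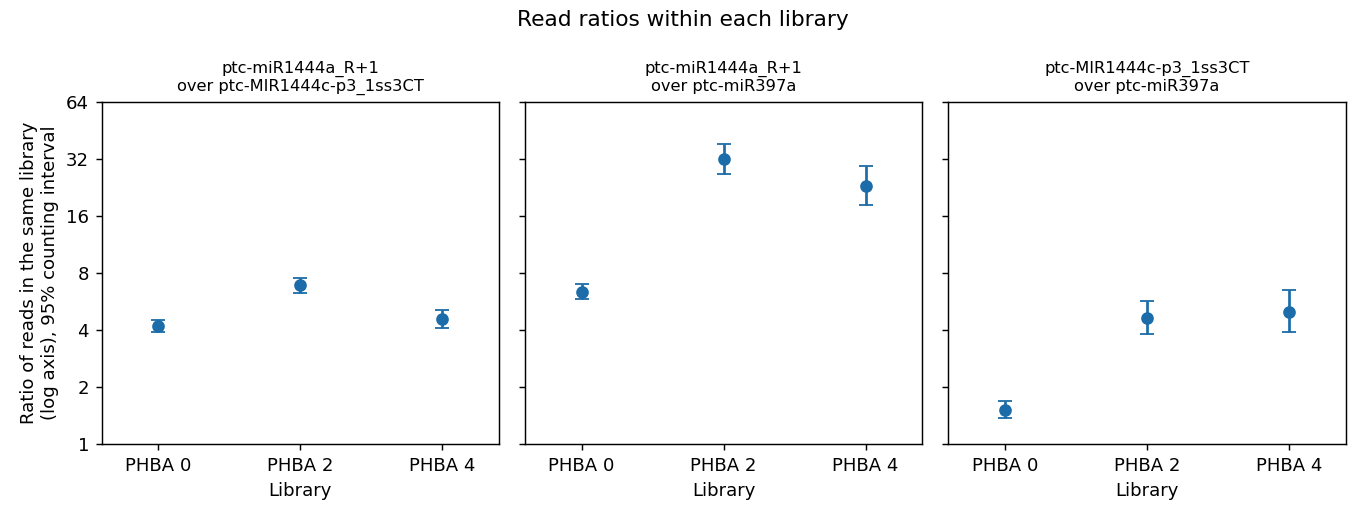
Ratio of reads of 2 members counted in the same library (log axis), for PHBA 0, PHBA 2 and PHBA 4, with 95% counting intervals as bars. The ratio of ptc-miR1444a_R+1 to ptc-MIR1444c-p3_1ss3CT is highest in PHBA 2, at 6.89, and both ratios to ptc-miR397a are higher in PHBA 2 and PHBA 4 than in PHBA 0.

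These values were read against the rest of the table. Of the 8 members, 5 reached the minimum used here, a mean over the 3 libraries of 10 normalized reads, as did 289 of all 472 sequences. For PHBA 2 against PHBA 0, 2 of these 5 were at least 2-fold higher, ptc-miR1444a_R+1 and ptc-MIR1444c-p5, against 16.3% of the 289 sequences, and 0 were at least 2-fold lower, against 9.69%. For PHBA 4 against PHBA 0, 0 of 5 were higher, against 23.9%, and 1 was lower, ptc-miR397a, against 21.1%. For PHBA 4 against PHBA 2, 0 of 5 were higher, against 17.3%, and 1 was lower, ptc-MIR1444c-p5, against 16.3%. With so few members, 1 or 2 of 5 is not far from the shares of the whole table, and strands of 1 hairpin share their source. Both calls of ptc-MIR1444c-p5 end with a pseudocount of 10, and that of ptc-miR397a ends, at a log2 value of -0.97, when libraries are set to equal totals without fragments.

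The position among all sequences was given by the log2 fold change with a pseudocount of 1. At the lower dose ptc-miR1444a_R+1, at 1.44, ranked 25 from the highest of 289, and ptc-miR397a, at -0.88, ranked 254. The median of the 4 miR1444 sequences was 1.04, beside -0.03 over all 289. For PHBA 4 against PHBA 0 the miR1444 median was 0.18, beside 0.01, and ptc-miR397a ranked 246 at -1.36. For PHBA 4 against PHBA 2 the miR1444 median was -0.96, beside 0.03, with ptc-miR1444a_R+1 at rank 237. These last 2 comparisons share a library with the first, so they are not separate evidence that values were highest in PHBA 2.

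**Figure D4:**
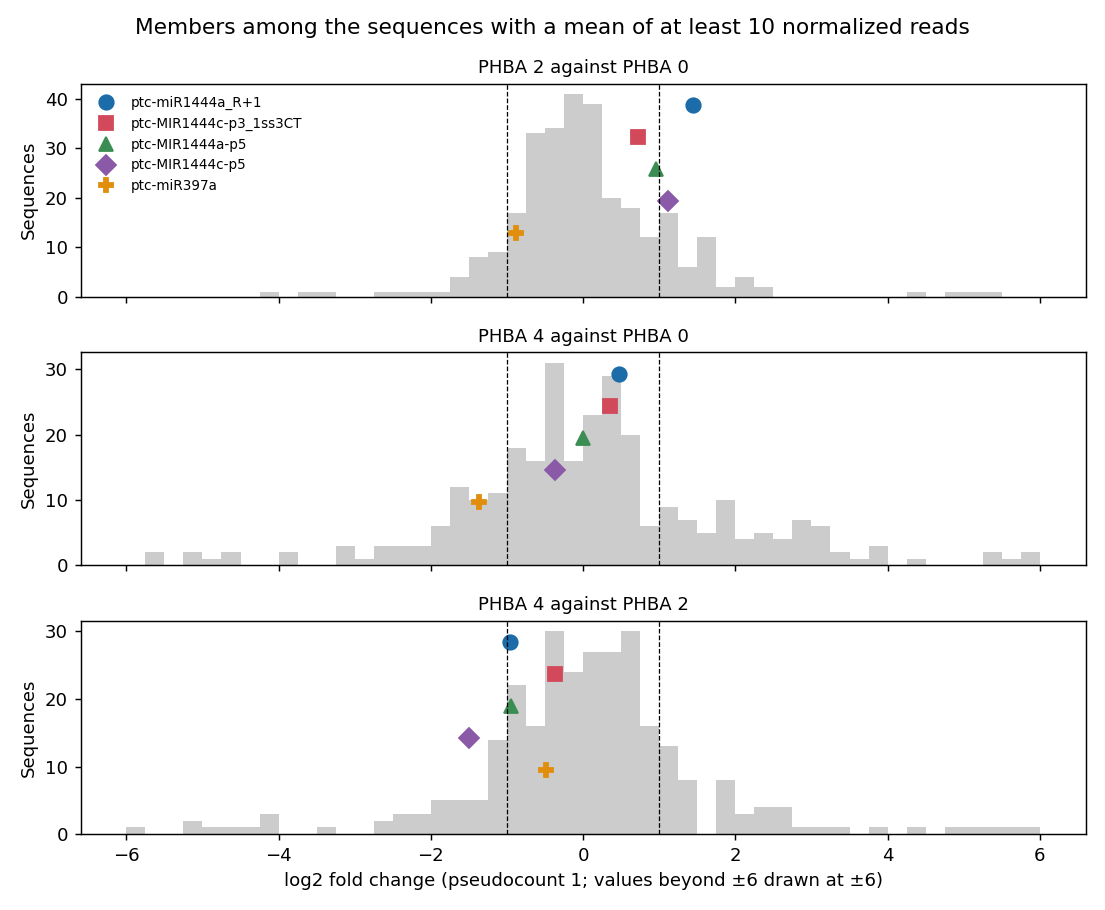
Log2 fold changes of the 289 sequences whose mean reached 10 normalized reads (grey bars, number of sequences per bin), in the 3 comparisons, with the 5 members as coloured symbols whose height carries no value and dashed lines at a 2-fold difference. At the lower dose 2 miR1444 sequences lie past the upper line, and ptc-miR397a lies past the lower line only for PHBA 4 against PHBA 0.

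Other copper-responsive miRNAs were set beside them. Of the 5 sequences of miR398 and miR408, all with a mean of at least 10, 2 were at least 2-fold higher and 0 lower in PHBA 2 against PHBA 0, beside 16.3% and 9.69% of the 289 sequences. In PHBA 4 against PHBA 0, 2 were higher and 1 lower, beside 23.9% and 21.1%. In PHBA 4 against PHBA 2, 2 were higher and 2 lower, beside 17.3% and 16.3%. With so few sequences, 1 or 2 of 5 is not far from the shares of the whole table. ptc-miR398b, which acts on copper superoxide dismutases, stood at 62.6, 183 and 643 normalized reads over the doses and so was highest in PHBA 4, unlike miR1444. ptc-miR408-3p, which acts on blue copper proteins such as plantacyanin, stood at 1597, 2071 and 1618, and its ratio of PHBA 4 to PHBA 2, 0.781 (0.723 to 0.845), is 0.960 with equal totals (0.888 to 1.04). Against ptc-miR408-3p in the same library, reads of ptc-miR1444a_R+1 were 1.19 times in PHBA 0 (1.14 to 1.25), 2.49 times in PHBA 2 (2.35 to 2.64) and 1.64 times in PHBA 4 (1.52 to 1.77). Reads of ptc-miR398b were 0.210 times those of ptc-miR397a in PHBA 0, 1.13 times in PHBA 2 and 5.57 times in PHBA 4. Summed over its 3 sequences, miR408 stood at 1735, 2331 and 1684 normalized reads, and each of them was highest in PHBA 2. The summed value was 1.34-fold higher in PHBA 2 than in PHBA 0 (1.27 to 1.42). The copper-responsive families thus differed in the dose that held their highest value. As deposited, ptc-miR1444a_R+1 and miR408 were highest in PHBA 2, ptc-miR398b in PHBA 4 and ptc-miR397a in PHBA 0.

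Outside miR1444 and miR397, the sequences most like ptc-miR1444a_R+1 over the doses were not of miR398 or miR408. Likeness was the distance between log2 fold changes of PHBA 2 and PHBA 4 against PHBA 0, over the 3 libraries and 140 sequences with a mean of at least 100. The sequences of miR1444 and miR397 were left out beforehand. Of miR398 and miR408, only ptc-miR398b and ptc-miR408-3p reached that mean. Nearest were gma-miR6300_R+6_1 and gma-miR6300_R+6_2 (gma for soybean), both at a distance of 0.33. Both have the same 3 values, 457, 1462 and 747 normalized reads, so they need not be separate observations. Next was ptc-MIR6457a-p5_1ss7AG, at a distance of 0.57 and at 113, 230 and 207 normalized reads. miR6300 is among the annotations doubted as fragments of tRNA or rRNA.

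Libraries differed in depth and in such fragments. Distinct sequences held 1434442, 542913 and 380800 reads over the 3 doses, so PHBA 4 is the shallowest. The list of doubted annotations (miR894, miR5139, miR5368, miR6300, miR6478) has 29 sequences here, none of them of miR894 or miR5139. Of these 28, 26 and 29 were above 0 over the doses. Their summed level was 4837, 14605 and 22670 normalized reads. The list was 3.02-fold higher in PHBA 2 than in PHBA 0, together with miR1444, while in PHBA 4 it was 1.55-fold higher than in PHBA 2 and miR1444 was 1.84-fold lower (1.75 to 1.93). Sequences of 18 and 19 nt held 0.329%, 0.670% and 3.60% of reads, and the members are 20 to 22 nt long. The part of fragments in the differences between libraries was not tested, and ratios of members within a library do not depend on the total.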

How the data were processed

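Total RNA of roots was mixed by treatment and made into small RNA libraries with standard Illumina methods, per the labels' protocols. The submitters' processing notes name bcl2fastq 1.8.4, which converts base calls. Aligner, counting tool, miRNA database release and genome build: not given in the sources used here. The deposited table gives an expected count per entry, which need not be whole, although all values of the 8 members are. The authors' normalized signal in the deposited table is this count times a constant of the library (0.498, 1.29 and 1.50 over the doses), with no length term and no stated basis. Each distinct sequence was counted once.

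With 1 library per dose no test was run. A 2-fold difference was a log2 ratio of at least 1 in size with a pseudocount of 1, which understates differences of low values, among sequences whose mean reached 10 normalized reads. Folds in the text have no pseudocount. Fold intervals (95%) are Clopper-Pearson intervals of the count of 1 library given both, after rounding, and shares have Wilson intervals. Both cover counting error only. The labels name no molecular identifiers, so reads need not be independent molecules and the intervals may be too narrow. Alternatives were equal totals, median-of-ratios factors, other minimums, a pseudocount of 10 and counting every entry. Strand pairing used RNAduplex (ViennaRNA 2.7.2), and other steps used Python 3.11.15 with scipy 1.17.1. Only the fold intervals and the 2-fold calls were tested on simulated data, which held counting error alone. All 8 members are named, and so are the 3 sequences outside them that were nearest to ptc-miR1444a_R+1 by distance. Members and lists were chosen with earlier results of these data known. Counts of near-identical sequences of 1 family may be split between them in an uncertain way.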

Additional observations from a re-analysis of the deposited data

How the results depend on the processing

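No paired analysis was possible because each dose is 1 library. The summed log2 fold changes of both families, and those of 7 members wherever both libraries were above 0, kept their direction under every setting run, except ptc-MIR1444a-p5 for PHBA 4 against PHBA 0, at -0.036 with median-of-ratios factors. Equal totals shift log2 values of PHBA 4 by 0.32 against PHBA 0 and 0.30 against PHBA 2, with medians of all sequences at 0.36 and 0.33. The summed miR1444 values are then 0.77 and -0.58, beside 0.44 and -0.88 as deposited. For PHBA 4 against PHBA 2, intervals of ptc-miR397a, ptc-MIR1444c-p3_1ss3CT and both 5p strands include 1 with either form of equal totals. A further setting, chosen after seeing the data, was equal totals of sequences of at least 20 nt outside the fragment list. The summed miR1444 values are then 0.84 and -0.53. For PHBA 4 against PHBA 0 the summed miR397 value is then -1.03 (-1.42 as deposited). In that comparison 0 of 5 members are at least 2-fold lower (14.3% of 293 sequences). For PHBA 2 against PHBA 0, 2 of 5 members are at least 2-fold higher as deposited (16.3% of 289 sequences). With a minimum mean of 100 it is 1 of 3 (15.4% of 143), and with a pseudocount of 10 it is 1 of 5 (11.1% of 289). With no minimum 3 of 8 are higher (17.2% of 472), the third being aly-miR397a-5p_R+1_1ss21GT, with 7 reads in both libraries. With equal totals without fragments 3 of 5 are higher (17.4% of 293), the third being ptc-MIR1444a-p5. With no minimum, 1 of 8 is lower there (23.3% of 472 sequences), 4 are lower for PHBA 4 against PHBA 0 (33.7%) and 3 for PHBA 4 against PHBA 2 (22.5%), mostly miR397 sequences listed at 0. In the comparison of PHBA 4 with PHBA 2, 2 of 5 are lower with median-of-ratios factors (18.3% of 289). It is 0 of 3 with a minimum of 100 (9.09% of 143) and 0 of 5 with a pseudocount of 10 (12.5% of 289). Counting every entry changed no family sum and no strand share. With 6 reads of ptc-MIR1444c-p5 and 77 of miR397 in PHBA 4, depth limits both.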
